A study of Gallus gallus with 4 samples.

Results

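Mitosis and spindle genes were examined in the epithelium of the chicken bursa of Fabricius, the lymphoid organ by the cloaca where the B cells of birds form. The set was drawn up from 19 listed genes of mitosis, to which every gene was added whose symbol begins with CENP (centromere proteins), NCAP (condensin subunits), KIF (kinesins) or BUB (checkpoint proteins). Of the listed genes, 17 were named by the array annotation, and CCNB2 and AURKA were not. With 59 further genes caught by a prefix, the set held 76 of the 13009 genes named on the array. Each gene stood by 1 probe set, the one with the highest mean log2 signal over the 4 arrays. Members therefore entered the set by gene name, but the set was drawn up with earlier results of these data known. The prefix KIF also takes in kinesins of transport, cilia and neurons, so the members were divided by role: 51 had a mitotic role and 25 were other kinesins or other prefix matches.

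All birds were healthy Line-M chicks, 19 days old and kept free of specific pathogens. The follicle-associated epithelium (FAE), a cap over each lymphoid follicle, and the interfollicular epithelium (IFE), which lines the surface from follicle to follicle, were picked by needle after black ink had marked the FAE, with 2 samples of each. Before picking, FAE lay in EDTA for 5 min at room temperature and IFE for 30 min at 37 °C, so the treatment and the epithelium cannot be told apart. Groups were taken from the titles and the cell type labels, because the source name of the IFE samples reads FAE. Whether the replicates are separate birds is not in the labels, and p-values therefore cover the spread between these samples alone, which may be technical. In such picked tissue, fewer cells of a type and less RNA per cell cannot be told apart.

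Mitosis separates the copied chromosomes. Cyclin-dependent kinase 1 with A and B cyclins drives entry, condensin compacts the chromosomes, and kinetochores built on the centromere proteins bind the microtubules of a spindle that kinesin motors shape. The spindle checkpoint holds back CDC20, the activator of the anaphase-promoting complex, until all kinetochores are attached. Most transcripts of these genes are made in the late cell cycle and are scarce in resting cells, and in the bursa the B cells of the follicles are known to divide rapidly.

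Values are given as scaled array signals, and a log2 fold change is FAE over IFE with its standard error (SE) from limma, fitted across 23063 probe sets. Adjusted p-values are limma's, after Benjamini-Hochberg adjustment over 10388 genes, and a gene was called at an adjusted p under 0.05. Signals of different genes come from different probes and are not compared with each other. Of the 76 members, 70 passed the filter on dim probe sets. The other 6 were the kinesin genes KIF6, KIF12, KIF21B, KIF25 and KIF27 and the gene annotated as KIF20AL, and none of them was tested.

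IFE replicate 2 stood apart in 2 measures of quality. For beta-actin, the signal at the 3' end was 31.2 times that at the 5' end, where the remaining arrays gave 14.4 to 18.6. The background level of IFE replicate 2 was 1.02, where that of the others lay between 0.671 and 0.722. The IFE arrays also differed more from each other than the FAE arrays did in these genes. Over the 51 members with a mitotic role, the median absolute log2 gap between replicates was 0.13 in FAE and 0.64 in IFE, against 0.21 and 0.44 over all tested genes. IFE replicate 2 had the higher signal of the IFE arrays for 37 of the 51, and for 5013 of all 10388 tested genes.

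Of the 70 tested members, 16 were called higher in FAE and 2 were called lower. That is 22.9% called higher, where 6.92% of all tested genes were called higher and 4.84% lower. The groups did not overlap for 57 members, 40 with both FAE arrays above both IFE arrays and 17 below, where 26.7% and 32.5% of all tested genes did so. The filter took the mean over all 4 arrays, so some of these 57 passed it only through the group where they were high. Among them were CCNA2, which was called, CENPF, CENPL and KIF15 through FAE, and KIF14 and KIF1A through IFE. The median log2 fold change was 0.54 over the tested members and -0.07 over all tested genes. Called higher were 10 of the 17 listed genes, with a median of 1.86, and 5 of the 34 prefix members with a mitotic role, with a median of 0.64. Of the 19 other kinesins and prefix matches that were tested, 1 was called higher and 1 lower, and their median was -0.43. The difference between these sets of genes was not tested.

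**Figure D1:**
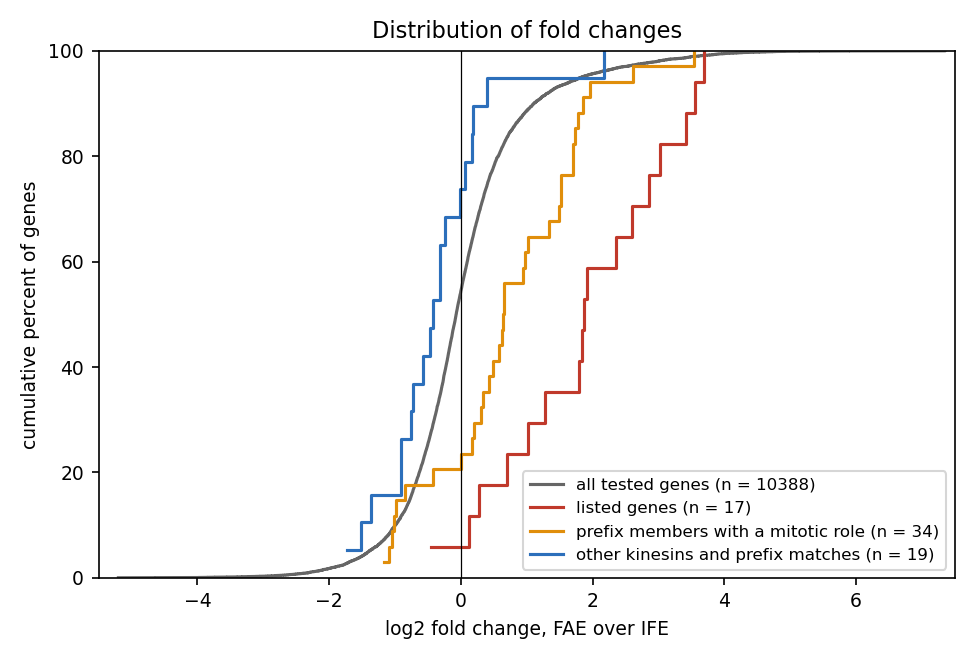
The curves give the cumulative percent of genes (y axis) up to each log2 fold change of FAE over IFE (x axis) for all 10388 tested genes, the 17 listed genes, the 34 prefix members with a mitotic role and the 19 other kinesins and prefix matches. The listed genes lie to the right of all tested genes, with medians of 1.86 and -0.07, while the other kinesins lie to the left, with a median of -0.43.

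These counts moved with the samples used. Without FAE replicate 1, 5 members (7.14%) were called higher, against 1.77% of all genes, and without FAE replicate 2 there were 6 (8.57%), against 2.70%. There were 24 (34.3%) without IFE replicate 1, where 18.7% of all genes were called higher. Without IFE replicate 2, the array that stood apart, there were 28 (40.0%), against 12.4% of all genes. Members called lower numbered 0 without either FAE replicate. They came to 8 (11.4%) when IFE replicate 1 was left out and to 5 (7.14%) when IFE replicate 2 was, which lies below the 15.3% and 11.5% of all genes called lower in those fits. The median over the members stayed between 0.36 and 0.68. Without the intensity trend of the variance, 8 members (11.4%) were called higher and 0 lower, where 16 and 2 were called with it. Of all genes, 3.04% were called higher and 0.818% lower without the trend. BUB1B, CDC20, MKI67, SMC2 and KIF11 were called in every fit in which they were tested, including each fit without 1 sample.

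**Figure D2:**
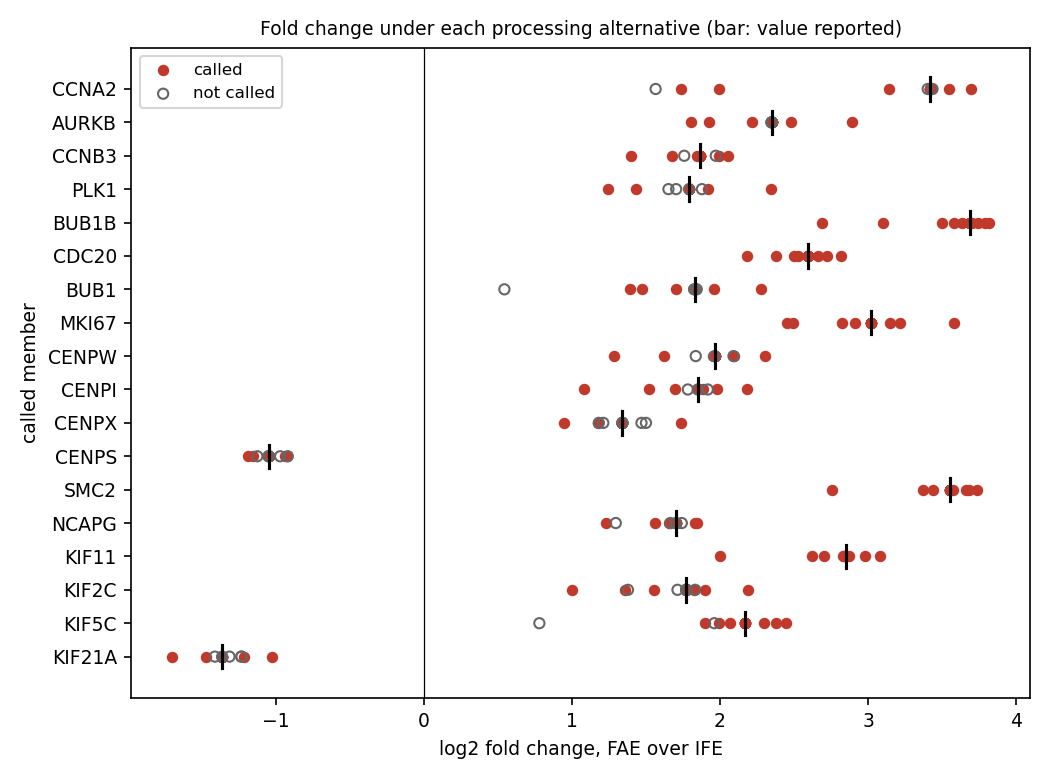
Each point is the log2 fold change of FAE over IFE (x axis) of 1 of the 18 called members (y axis) in the reported fit, marked by a bar, and in the processing alternatives; filled points were called and open points were not. All values of a gene lie on the same side of 0, and BUB1B, CDC20, MKI67, SMC2 and KIF11 have filled points only.

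**Figure D3:**
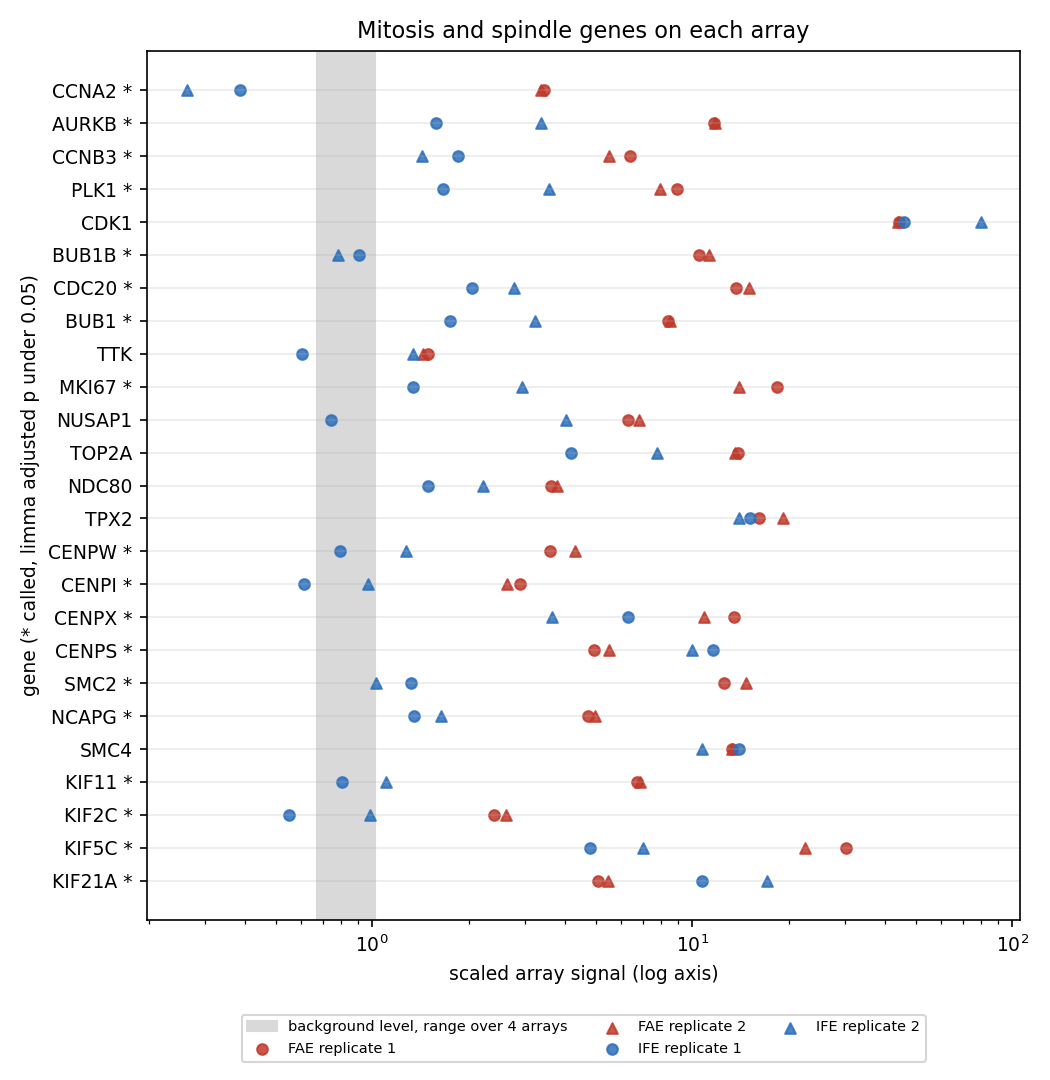
Points show the scaled signal on each of the 4 arrays (log axis) for the 17 listed genes and the other called members, with FAE in red, IFE in blue and the range of the array background levels, 0.671 to 1.02, as a grey band. For MKI67 the FAE arrays stand at 18.4 and 14.0 and the IFE arrays at 1.34 and 2.94, while for CDK1 the FAE arrays, at 44.4 and 43.8, lie below the IFE arrays, at 46.0 and 79.7.

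The kinases and cyclins that drive mitosis were higher in FAE for 4 of 5 members (80%), CDK1 being the one that was not called. Over all tested genes 6.92% were called higher. Cyclin A2 (CCNA2), which acts in S phase and at entry into mitosis, had signals of 3.45 and 3.37 in FAE and of 0.386 and 0.263 in IFE. Both IFE signals lay under background, so the change is given as at least 3.97-fold (adjusted p = 0.00574). Here and below, an adjusted p beside such a bound is that of the fitted log2 fold change and not of the bound. The B-type cyclin CCNB3 had 6.39 and 5.51 in FAE and 1.86 and 1.43 in IFE. Its FAE arrays stood clear of its IFE arrays, and the log2 fold change was 1.86 (SE 0.30, adjusted p = 0.0108). The gene annotated as AURKB, a kinase of the chromosomal passenger complex that corrects faulty attachments, had 11.7 on both FAE arrays and 1.58 and 3.36 in IFE. Its log2 fold change was 2.35 (SE 0.39, adjusted p = 0.0124). The Polo-like kinase PLK1, which acts from entry to exit, had 8.96 and 7.94 in FAE and 1.66 and 3.57 in IFE, which gives 1.79 on the log2 scale (SE 0.40, adjusted p = 0.0320).

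CDK1 itself, the kinase that these cyclins switch on, had 44.4 and 43.8 in FAE and 46.0 and 79.7 in IFE. Its arrays did not overlap either, with FAE below, but the log2 fold change of -0.46 did not pass, and its 95% interval ran from -1.16 to 0.25. Of this role group, none was called higher without FAE replicate 1 or without FAE replicate 2. The adjusted p of CCNA2 was then 0.162 and 0.0962, that of CCNB3 0.160 and 0.0751, that of AURKB 0.0870 and 0.0628, and that of PLK1 0.245 and 0.131. Without IFE replicate 1, CDK1 passed as lower, at -0.85 (adjusted p = 0.00662), and without IFE replicate 2 its log2 fold change was -0.06 (adjusted p = 0.828). PLK1 also missed the threshold with quantile normalization (adjusted p = 0.0573), and CCNA2 did so as the mean of its probe sets, at 1.56 (adjusted p = 0.0705).

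In the spindle checkpoint and its target, 3 of 5 members (60%) were higher in FAE, against 6.92% of all tested genes. BUB1B (BUBR1), which binds and blocks CDC20, had signals of 10.5 and 11.3 in FAE and of 0.907 and 0.784 in IFE. Its signal on IFE replicate 2 lay under that array's background, and its log2 fold change, 3.69 with an SE of 0.28 (adjusted p = 0.00145), rests partly on it. CDC20 had 13.7 and 15.1 in FAE and 2.04 and 2.76 in IFE, and no IFE signal came near the FAE signals. Its log2 fold change was 2.60 (SE 0.29, adjusted p = 0.00278), and without each sample in turn it lay between 2.38 and 2.81. BUB1, a checkpoint kinase of the kinetochore, had 8.39 and 8.49 in FAE and 1.74 and 3.22 in IFE, which gives 1.83 on the log2 scale (SE 0.35, adjusted p = 0.0204).

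The remaining checkpoint members did not pass. BUB3, which carries BUB1 and BUB1B to the kinetochore, had 94.5 and 98.4 in FAE and 85.5 and 70.8 in IFE, which gives 0.31 on the log2 scale with a 95% interval from -0.18 to 0.80. The kinase TTK (MPS1), which starts checkpoint signalling, had 1.49 and 1.44 in FAE and 0.605 and 1.34 in IFE. IFE replicate 2 lay just under the FAE arrays, the signal of IFE replicate 1 lay under background, and the log2 fold change was 0.70 (adjusted p = 0.429). BUB1 was not called without FAE replicate 1 (adjusted p = 0.168) or without FAE replicate 2 (0.120). As the mean of its 3 probe sets its log2 fold change was 0.54 (adjusted p = 0.528).

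Among the markers of chromosomes, spindle and outer kinetochore, all 7 members had both FAE arrays above both IFE arrays, as had 26.7% of all tested genes. Of the 7, 1 (14.3%), MKI67, passed the test, against 6.92% of all tested genes called higher. MKI67, the Ki-67 protein that coats mitotic chromosomes and marks cycling cells, had signals of 18.4 and 14.0 in FAE and of 1.34 and 2.94 in IFE. Its log2 fold change was 3.02 (SE 0.41, adjusted p = 0.00578), and the smallest margin was an adjusted p of 0.0483 without FAE replicate 1. TOP2A, the topoisomerase that untangles sister chromosomes, had 13.9 and 13.6 in FAE and 4.17 and 7.76 in IFE, which gives 1.27 on the log2 scale (SE 0.35, adjusted p = 0.0611). NDC80, the kinetochore protein that grips microtubules, had 3.62 and 3.77 in FAE and 1.5 and 2.22 in IFE, which gives 1.02 on the log2 scale (adjusted p = 0.0942). Its other tested probe set had 1.90 and 2.06 in FAE and 0.475 and 0.545 in IFE, both under background, so it was at least 2.31-fold higher in FAE. Adjusted over all probe sets, its p was 0.0469.

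NUSAP1, a microtubule binding protein of the spindle, had 6.31 and 6.80 in FAE and 0.742 and 4.04 in IFE. The IFE arrays lay far apart, with replicate 2 closer to FAE than to its own replicate, and the log2 fold change of 1.92 (SE 0.71) did not pass (adjusted p = 0.136). CENPF, a large kinetochore protein of late G2 and mitosis, had 1.43 and 1.76 in FAE and 0.373 and 0.179 in IFE, both under background. It was at least 1.85-fold higher in FAE and did not pass (adjusted p = 0.0629). TPX2, which builds spindle microtubules and activates Aurora kinase A, had 16.2 and 19.2 in FAE and 15.2 and 14.0 in IFE. Its log2 fold change of 0.27 had a 95% interval from -0.32 to 0.86. The other tested probe sets of TPX2 gave -0.0022 and -0.15, and on both the groups overlapped. Without IFE replicate 2, the log2 fold changes were 1.72 for TOP2A, 1.30 for NDC80 and 3.14 for NUSAP1. More of the 7 were called higher with either IFE replicate left out, as were more of all tested genes. MKI67 alone was called without either FAE replicate.

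**Figure D4:**
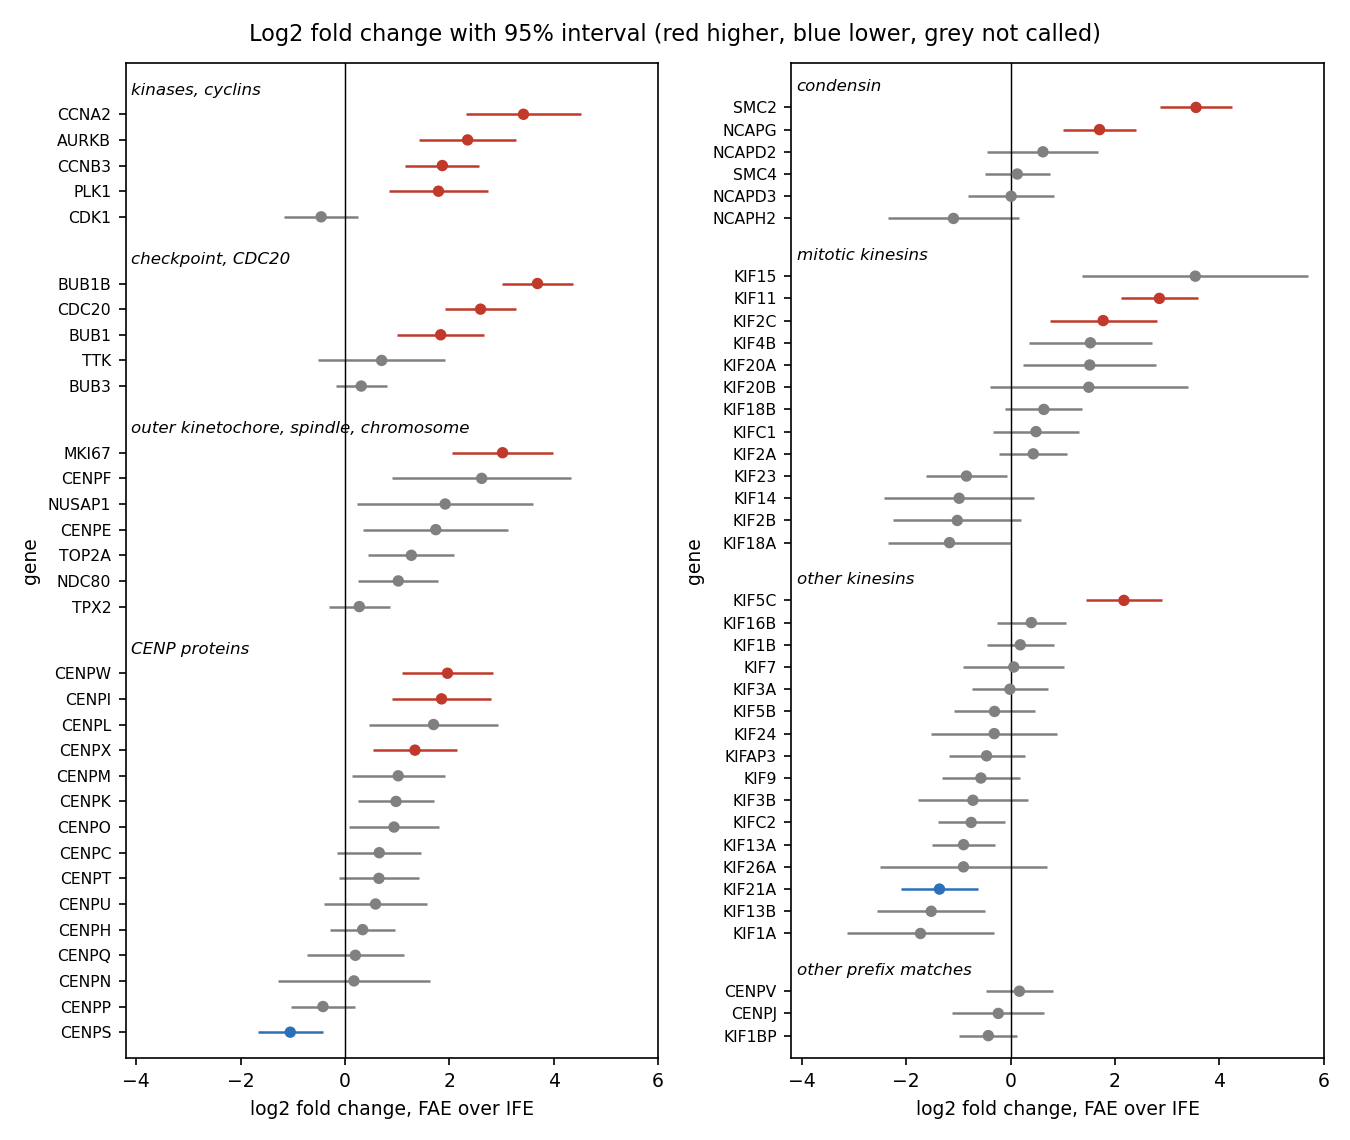
Each point is the log2 fold change of FAE over IFE of 1 of the 70 tested members, with its 95% interval from limma (x axis) and genes grouped by role (y axis). Red points were called higher, blue lower and grey were not called. The called genes range from -1.36 for KIF21A to 3.69 for BUB1B, and the values of genes under background in IFE, such as CCNA2, CENPI and KIF2C, are fitted values and not bounds.

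Of the 15 CENP proteins of the inner kinetochore and centromere, 3 (20%) were called higher and 1 (6.67%) lower in FAE. All tested genes gave 6.92% and 4.84%. CENPW, which forms a histone-fold complex with CENPT, had signals of 3.59 and 4.29 in FAE and of 0.795 and 1.27 in IFE, which gives 1.96 on the log2 scale (SE 0.37, adjusted p = 0.0182). CENPI, a subunit of the constitutive centromere network, had 2.90 and 2.65 in FAE and 0.611 and 0.968 in IFE. Both IFE values were under background, so CENPI was at least 3.23-fold higher in FAE (adjusted p = 0.0289). CENPX and CENPS, which bind each other at the centromere and in the repair of DNA crosslinks, went opposite ways. CENPX had 13.5 and 10.9 in FAE and 6.31 and 3.64 in IFE, which gives 1.34 on the log2 scale (SE 0.34, adjusted p = 0.0497). CENPS had 4.93 and 5.48 in FAE and 11.6 and 9.97 in IFE, which gives -1.05 on the log2 scale (SE 0.26, adjusted p = 0.0471).

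The calls of CENPX and CENPS are close to the threshold. With p adjusted over all probe sets in place of genes, the adjusted p was 0.0611 for CENPX and 0.0583 for CENPS, and with the common median scaling it was 0.0735 and 0.120. All 4 CENP calls were lost without either FAE replicate, with adjusted p between 0.148 and 0.509 without FAE replicate 1 and between 0.153 and 0.311 without FAE replicate 2. The fitted log2 fold changes of the other 11 ranged from -0.42 for CENPP to 1.70 for CENPL. Of these 11, 8 had both FAE arrays above both IFE arrays, as had 26.7% of all tested genes. CENPL had 1.77 and 1.59 in FAE and 0.394 and 0.682 in IFE, both under background. It was at least 1.96-fold higher in FAE (adjusted p = 0.0878). CENPM had 2.18 and 2.70 in FAE and 0.974 and 1.47 in IFE (adjusted p = 0.135). CENPP had 19.0 and 16.6 in FAE and 20.8 and 27.1 in IFE. Another CENPP probe set had 2.13 and 2.52 in FAE and 0.838 and 0.115 in IFE, which gives 2.90 on the log2 scale (SE 0.93). Its signal on IFE replicate 2 lay under that array's background, and its p adjusted over all probe sets was 0.114. The fitted values of the CENPP probe sets thus differ in sign, and neither passed. More CENP genes were called higher with either IFE replicate left out, as were more of all tested genes.

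Condensin is the ring-shaped complex that compacts mitotic chromosomes, and 2 of its 6 measured subunits (33.3%) were higher in FAE. Over all tested genes the share was 6.92%. SMC2, an ATPase of condensin I and II alike, had signals of 12.6 and 14.7 in FAE and of 1.32 and 1.02 in IFE. The FAE arrays lay far above the IFE arrays, and the log2 fold change was 3.55 (SE 0.29, adjusted p = 0.00146). NCAPG, a subunit of condensin I, had 4.71 and 4.97 in FAE and 1.35 and 1.64 in IFE, which gives 1.70 on the log2 scale (SE 0.30, adjusted p = 0.0139). The NCAPG call was lost without FAE replicate 1 (adjusted p = 0.168) and also without FAE replicate 2 (0.134).

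SMC4, the partner ATPase of SMC2, was not called. It had 13.3 and 13.4 in FAE and 14.0 and 10.7 in IFE, so the groups overlapped, and its log2 fold change of 0.13 had a 95% interval from -0.50 to 0.75. NCAPD2 of condensin I had 3.45 and 3.16 in FAE and 3.36 and 1.38 in IFE, also overlapping, at 0.62 (adjusted p = 0.425). NCAPH2 of condensin II had 0.764 and 0.530 in FAE and 1.08 and 1.72 in IFE, at -1.10 (adjusted p = 0.240), with 1 FAE signal under background. Without IFE replicate 1, NCAPD2 was called higher as well, at 1.26 (adjusted p = 0.0138).

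SMC2 lies on the Z chromosome, as do 5 other members: CENPH, CENPK, KIF2A, KIF24 and KIF27. Besides SMC2, none of these was called, and KIF27 was not tested. Bird sex is not in the labels. The W-linked gene HINTW stood at 10.2 and 5.31 in FAE and at 0.0864 and 0.178 in IFE, both under background. Over the 17 genes of chromosome W on the array, the summed signal was 99.9 and 143 in FAE and 247 and 371 in IFE. Such a sum mixes different probes and does not speak for HINTW. Of the 7 that were tested, 1 was called higher and 1 lower, and their median log2 fold change was 0.0079. Their fitted values ran from -1.71 to 5.89, the latter being that of HINTW. The median log2 fold change over 474 tested genes of chromosome Z was -0.18, against -0.07 over all genes. The part of bird sex in these results was not tested.

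Of the 13 mitotic kinesins, 2 (15.4%) were called higher and none lower, against 6.92% and 4.84% of all tested genes. KIF11, the motor that pushes the spindle poles apart, had signals of 6.71 and 6.88 in FAE and of 0.803 and 1.11 in IFE. Its log2 fold change was 2.85 (SE 0.31, adjusted p = 0.00280). Both IFE signals of its other tested probe set lay under background, so that one was at least 4.50-fold higher in FAE. KIF2C (MCAK), which takes apart microtubules at centromeres, had 2.41 and 2.62 in FAE and 0.551 and 0.982 in IFE. Its IFE signals were under background, which makes it at least 2.93-fold higher in FAE (adjusted p = 0.0434). The KIF2C call was lost without FAE replicate 1 (adjusted p = 0.337), without FAE replicate 2 (0.287) and when p was adjusted over all probe sets (0.0539).

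The other 11 mitotic kinesins ranged from -1.17 to 3.54 and did not pass. KIF15, which helps KIF11 to hold the spindle open, had 2.77 and 2.63 in FAE and 0.0902 and 0.60 in IFE, both under background. By this probe set KIF15 was at least 3.15-fold higher in FAE (adjusted p = 0.0519). Setting signals under background to that level, an alternative added after seeing the data, gave it a log2 fold change of 1.66 and an adjusted p of 0.0173. The other 2 tested probe sets of KIF15 gave -0.85 and 0.95, so this gene is uncertain. The gene annotated as KIF4B, whose relatives are motors on chromosome arms, had 16.6 and 15.5 in FAE and 3.18 and 9.71 in IFE, which gives 1.53 on the log2 scale (SE 0.50, adjusted p = 0.100). Its other tested probe sets gave 1.95 (SE 0.45) and 1.66 (SE 0.50), with p of 0.0462 and 0.0993 adjusted over all probe sets. KIF18A, which aligns chromosomes, had 0.737 and 1.72 in FAE and 2.04 and 3.17 in IFE, at -1.17 (adjusted p = 0.183). KIF14, a motor of cytokinesis, had 0.566 and 0.452 in FAE, under background, and 1.0 on both IFE arrays (adjusted p = 0.347). IFE replicate 2 also lay under its background, so no bound is given. Another KIF14 probe set gave 2.34 with an SE of 2.00, and its 95% interval, from -2.41 to 7.08, takes in the value of the first. KIF2B, a relative of KIF2C known from kinetochores of dividing human cells, had 0.726 and 0.650 in FAE and 1.03 and 1.89 in IFE, at -1.02 (adjusted p = 0.259), with 1 FAE signal under background. More mitotic kinesins were called higher with either IFE replicate left out, as were more of all tested genes. Leaving out IFE replicate 2 also gave a lower call, and more lower calls over all tested genes.

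Of the 16 tested kinesins known for transport, cilia or neurons, 1 was called higher, 1 was called lower and 12 had a log2 fold change under 0. The calls make up 6.25% each way, near the 6.92% and 4.84% of all tested genes. Over all 10388 tested genes, 5654 had a log2 fold change under 0. KIF5C, a heavy chain of the cargo motor kinesin-1 that is best known from neurons of mammals, had signals of 30.2 and 22.6 in FAE and of 4.79 and 7.02 in IFE. It was called higher, at 2.17 on the log2 scale (SE 0.31, adjusted p = 0.00660). By a second tested probe set, with both IFE signals under background, KIF5C was at least 4.32-fold higher in FAE. It was not called without FAE replicate 1, at 1.96 (adjusted p = 0.111), or as the mean of its 4 probe sets, at 0.78 (adjusted p = 0.344). KIF21A, a kinesin that slows microtubule growth, had 5.09 and 5.45 in FAE and 10.7 and 17.1 in IFE, which gives -1.36 on the log2 scale (SE 0.31, adjusted p = 0.0346). That call was lost without FAE replicate 1 (adjusted p = 0.346), without FAE replicate 2 (0.212), with the common median scaling (0.0564), without the intensity trend (0.111) and as the mean of its probe sets (0.0693). More of these kinesins were called lower with either IFE replicate left out, as were more of all tested genes.

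The remaining kinesins of this kind were not called, though the log2 fold change of KIF13B lay further below 0 than that of KIF21A. KIF1A, a motor of synaptic vesicle precursors in mammals, had 0.522 and 0.344 in FAE, under background, and 1.67 and 1.18 in IFE. Its signal was at least 2.07-fold lower in FAE (adjusted p = 0.114). KIF13B had 0.801 and 1.68 in FAE and 2.90 and 3.82 in IFE, which gives -1.52 on the log2 scale (adjusted p = 0.0703). KIF16B at 0.40 and KIF1B at 0.18 were the highest of those not called. KIF5B, the widely expressed relative of KIF5C, had 6.90 and 8.56 in FAE and 7.40 and 12.3 in IFE and overlapped between the groups. Of the 3 tested prefix matches outside these roles, none was called. CENPV stood at 0.17, the centriole protein gene CENPJ at -0.24 and KIF1BP, a kinesin binding protein, at -0.43.

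Other genes of mitosis, taken from a list of 78 symbols of which 60 were on the array included 53 that were tested. Of these, 11 (20.8%) were called higher and 1 (1.89%) lower, with a median log2 fold change of 0.74. All tested genes gave 6.92% and 4.84%. NEK2, a kinase of centrosome separation, had signals of 8.38 and 8.59 in FAE and of 0.974 and 1.30 in IFE, which gives 2.92 on the log2 scale (SE 0.30, adjusted p = 0.00225). CDCA3 had 13.2 and 11.6 in FAE and 0.498 and 1.48 in IFE, which gives 3.85 on the log2 scale (SE 0.50, adjusted p = 0.00516). Its signal on IFE replicate 1 lay under that array's background, and the log2 fold change rests partly on it. NUF2, the partner of NDC80, was at least 5.26-fold higher and CKS1B, a small subunit of cyclin-dependent kinases, at least 4.11-fold higher, since both lay under background in IFE. The 1 lower gene was WEE1, the kinase that holds CDK1 inactive, with 41.3 and 52.6 in FAE and 89.1 and 153 in IFE, which gives -1.32 on the log2 scale (SE 0.30, adjusted p = 0.0349). WEE1 was named after its values were seen, and its call was lost with either FAE replicate left out. Fewer of all tested genes were called lower in those fits as well. CCNB1, for which the gene table gives CCNB2 as a synonym, had 16.0 and 19.1 in FAE and 6.89 and 11.8 in IFE, which gives 0.96 on the log2 scale (SE 0.33, adjusted p = 0.111). Fewer genes of the list were called higher with either FAE replicate left out, and more with either IFE replicate left out. The same held over all tested genes.

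Subunits of the anaphase-promoting complex, the ubiquitin ligase that CDC20 activates, were not called. All 12 tested missed the threshold, their median log2 fold change was -0.0047, and they ranged from -0.96 to 0.32. With either IFE replicate left out, calls appeared among the subunits, as more did over all tested genes. DNA replication genes, which act in the S phase that precedes mitosis, had 9 of 42 (21.4%) called higher, none lower and a median of 0.50. Over all tested genes 6.92% were called higher. CDC45, a subunit of the replicative helicase, had 14.7 and 13.7 in FAE and 1.40 and 1.39 in IFE, which gives 3.35 on the log2 scale (SE 0.26, adjusted p = 0.00146). The helicase gene MCM5 was at least 4.39-fold higher, ORC1 of the origin recognition complex had a log2 fold change of 2.13 and the licensing factor CDT1 one of 1.68. Fewer replication genes were called higher with either FAE replicate left out, and more with either IFE replicate left out. Over all tested genes the calls moved the same way.

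Of the regulators of the G1 phase, 2 of 24 (8.33%) were called higher and 1 (4.17%) lower, with a median of -0.14. These shares are near those of all tested genes, 6.92% and 4.84%. E2F1, a transcription factor of S phase entry, had 13.9 and 14.5 in FAE and 5.04 and 3.34 in IFE, which gives 1.79 on the log2 scale (SE 0.30, adjusted p = 0.0126). The cell cycle inhibitor gene CDKN2A was also higher, at 1.35 (SE 0.28, adjusted p = 0.0261). MYCN, a growth-promoting transcription factor, was lower in FAE, with 1.23 and 1.80 against 8.42 and 9.59 in IFE, which gives -2.59 on the log2 scale (SE 0.31, adjusted p = 0.00372). E2F1 and CDKN2A were not called without either FAE replicate, and MYCN was not called without FAE replicate 1. With either IFE replicate left out, more genes of the list were called higher and more lower, as over all tested genes.

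**Figure D5:**
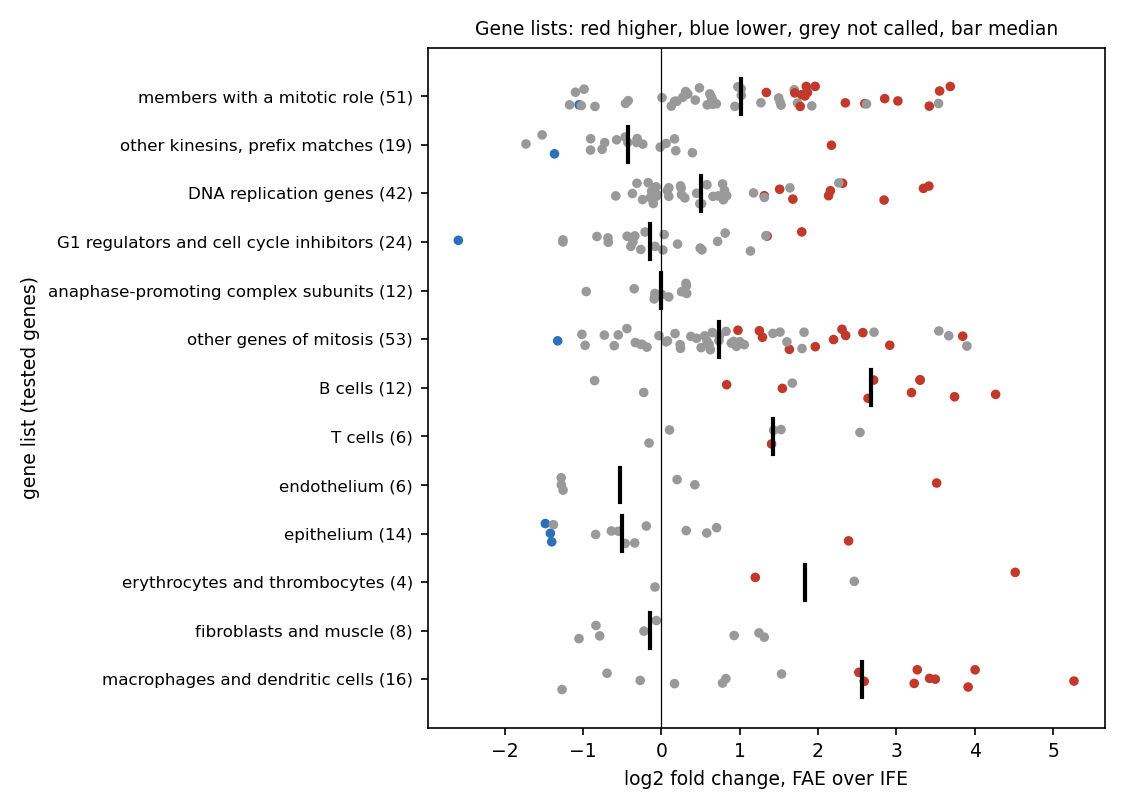
Each point is the log2 fold change of FAE over IFE of 1 tested gene (x axis), by gene list with the number tested in parentheses (y axis); red points were called higher, blue lower and grey not called, and the black bar is the list's median. The members with a mitotic role have a median of 1.02 and the B cell and macrophage markers medians of 2.67 and 2.56, while the epithelial markers have a median of -0.50.

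Markers of leukocytes were higher on the same FAE arrays. Of 14 B cell markers on the array, 12 were tested and 9 (75%) were called higher, none lower, with a median log2 fold change of 2.67. Their summed signal was 337 to 354 in FAE and 128 to 171 in IFE, and CXCR5 lay under background on all arrays. Of the 12 tested, 2 had a log2 fold change under 0. PAX5 stood at -0.85 (adjusted p = 0.285), with both FAE arrays below both IFE arrays, and BCL11A at -0.22. LYN, a kinase of B cell receptor signalling, had 125 and 110 in FAE and 60.3 and 72.2 in IFE, while the transcription factor gene BCL11A had 43.4 and 49.7 in FAE and 43.6 and 67.7 in IFE. Of 17 macrophage and dendritic cell markers, 16 were tested and 9 called higher, with a median of 2.56 and sums of 1720 to 1758 in FAE and 691 to 777 in IFE. The 9 are 56.2% of those tested, against 6.92% of all tested genes. XCR1 lay under background on all arrays, and CD74 and CTSS were not called. Of the 16 tested, 3 had a log2 fold change under 0, namely IRF8 at -1.27 (adjusted p = 0.0587), MARCO at -0.69 and CD86 at -0.27. Fewer B cell markers were called higher with either FAE replicate left out, as were fewer of all tested genes. More macrophage and dendritic cell markers were called higher with either IFE replicate left out, as were more of all tested genes.

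The other marker lists held fewer calls. Called higher were 16.7% of tested T cell, 7.14% of epithelial, 16.7% of endothelial and 50% of erythrocyte and thrombocyte markers. Over all tested genes that share was 6.92%. Called lower were 21.4% of tested epithelial markers, against 4.84% of all tested genes. CD3E alone of 6 tested T cell markers was called higher. Their median log2 fold change was 1.42, with 5 above 0 and 1 below, where 4734 of all 10388 tested genes lay above 0. Their summed signal was 52.4 to 61.1 in FAE and 23.6 to 31.0 in IFE, and LCK and TRAT1 lay under background throughout. Of 14 tested epithelial markers, VIL1 was higher and ELF3, PKP2 and CDH17 were lower, with sums of 1227 to 1489 in FAE and 2040 to 2148 in IFE. EPCAM, a general epithelial marker, had 315 and 412 in FAE and 501 and 554 in IFE. Of 6 tested endothelial markers, CDH5 was higher, while 3 had a log2 fold change under 0, among them EGFL7 at -1.25 (adjusted p = 0.0616), and the median was -0.53 (sums of 17.1 to 20.8 and 11.4 to 15.9, with TEK, TIE1 and ERG under background). HBA1 and ITGB3 were higher of 4 erythrocyte and thrombocyte markers (14.5 to 15 against 4.96 to 5.96), and none of 8 tested fibroblast and muscle markers was called (10.4 to 24.9 against 15.7 to 16.1, LUM and ACTA2 under background). The epithelial marker PKP3 also lay under background on all arrays. With 1 sample left out, the numbers of epithelial, T cell, and erythrocyte and thrombocyte markers called moved, as did those of all tested genes. LYN, BCL11A, CD74 and EPCAM, among others named from these lists, stood above background on all 4 arrays. The part of leukocyte content in the mitotic signals was not tested.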

How the data were processed

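The 2 FAE and 2 IFE samples were labelled with biotin in a 2-cycle protocol and hybridised to a single-colour chicken array, per the labels' protocols. The authors deposited 1 linear intensity for each probe set and array, and the submitters' processing notes name MAS5. Its version is not given in the sources used here. All 4 columns have median 1 and lowest value 0.01. After removal of 96 controls, 38439 probe sets remained, of which 27168 named 1 gene, 177 several and 11094 none in the platform annotation. That annotation gave the symbols, and the RefSeq gene table of assembly bGalGal1.mat.broiler.GRCg7b gave chromosomes.

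Arrays were brought to the same 2% trimmed mean, and log2 was taken with no offset. Probe sets under the 40th percentile of mean signal (0.695) were left out, 15376 in number. The remaining 23063 were fitted with limma 3.58.1 in R 4.3.3 (lmFit, eBayes with an intensity trend), two-sided, after the procedure was tested on simulated data. One probe set stood for each gene, chosen by its mean log2 signal, and p-values were adjusted over the genes so tested. The background level of an array was the 95th percentile of 744 unnamed probe sets whose ID lacks the Gga prefix. Where a group lay under it on both arrays, the fold is given as at least N-fold, with the higher of signal and background level as the dim group's value. Ranges, medians, figures, processing alternatives, HINTW and the further probe sets of KIF15 keep the fitted values. Adjusted p-values, also those beside a bound, are limma's for the fitted values. Single-array signals carry no error of their own, and the number of arrays limits the precision.

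The members, lists and tests were chosen with earlier results of these data known. The role of the remaining prefix matches was formed, TTK was counted under the checkpoint alone, and KIF2B was placed with the mitotic kinesins, after the files were seen. The rule for names took all measured listed genes, each called member and, per role, the 2 uncalled members furthest from 0 in each direction. It took up to 4 called genes per pathway list and up to 2 bright genes per marker list. KIF5B, KIF14, WEE1, CCNB1, HINTW, untested members, members of chromosome Z and further markers were named outside it, after their values were seen. Alternatives were quantile or common median scaling, no filter or one at the 60th percentile, an offset of 1, no intensity trend, no probe sets that may cross-hybridise, the mean of a gene's probe sets, adjustment over all probe sets, the replicate number as a block, and leaving out each sample. Raising signals to background was added after seeing the data. The FAE and IFE differences between replicates 1 and 2 correlated at 0.0246, so nothing shows that equal numbers pair samples.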

Additional observations from a re-analysis of the deposited data

How the results depend on the processing

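The 18 called members kept their direction under each of the 15 alternatives in which they were tested. Members called higher, 16 as reported, numbered between 5 and 28 with 1 sample left out, and those called lower, 2 as reported, between 0 and 8. Without the intensity trend they numbered 8 and 0. With the common median scaling 0 were called lower, and 1 was with the mean of all probe sets or with p adjusted over all probe sets. Over all genes, 719 higher and 503 lower became 316 and 85 without the intensity trend, and 261 were lower with the mean of all probe sets. With 1 sample left out they ran from 184 to 1942 and from 38 to 1587. The replicate number as a block gave 21 members higher and 2 lower, and 870 and 711 genes, and 17 of its 23 called members were among the 18 reported. The median of all genes was -0.07 as reported and 0.06 with the common median scaling. Leaving out a sample leaves 1 array in its group, which is then assumed to vary like the other group.

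Among the 44 named members, 11 values changed sign, each for a gene that was not called. With the mean of all probe sets these were CENPP (1.24), KIF14 (0.31), KIF16B (-0.047), KIF1BP (0.80) and NCAPH2 (0.022). KIF14 stood at 2.34 without probe sets that may cross-hybridise. With 1 sample left out, CENPJ ran from -0.52 to 0.050, SMC4 from -0.066 to 0.32, NCAPD2 from -0.025 to 1.26 and KIF1B from -0.040 to 0.41. The cause was not tested. Signals near background limit the size of a change for genes that are dim in IFE.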

Other observations

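Several mitotic members had further probe sets that were too dim to be tested. A second TOP2A probe set had signals of 0.788 and 0.957 in FAE and of 0.0563 and 0.0388 in IFE. Since both IFE values lay under background, it gives no more than a bound of at least 1.01-fold. The second BUB1B probe set had 0.835 and 1.22 in FAE and 0.135 and 0.232 in IFE, at least 1.18-fold, and a dim CENPF probe set had 1.04 and 1.11 in FAE and 0.0851 and 0.0889 in IFE, at least 1.25-fold. In all 3 the FAE arrays lay above the IFE arrays, but these 3 were picked with their values known. Other dim probe sets overlapped between the groups, as some of CENPF did, or had FAE below IFE, as for CENPL. The dim further probe sets were not counted by direction. The second CCNA2 probe set lay under background on all 4 arrays, with 0.546 and 0.625 in FAE and 0.676 and 0.754 in IFE, and both further probe sets of BUB1 did so too.

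Of 31 tested further probe sets, which belong to 20 members, 7 differed from the reported one by more than 1 on the log2 scale. The 3 that belong to called members (KIF11, KIF5C and KIF21A) had the direction of the probe set reported.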
